A study of Mus musculus with 3 samples.

Results

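The genes described here are the cytosolic aminoacyl-tRNA synthetases and the genes of the amino acid stress response, serine synthesis and amino acid transport. They were chosen by name, and 37 of the 24063 genes in the count table were found, 19 of them synthetase genes and 18 others. Expression was measured in 3 low-input RNA-Seq libraries of untreated mouse blastocysts, 1 from C57BL/6 (B6), a strain without autoimmune disease, and 2 from NOD, an inbred strain that spontaneously develops autoimmune diabetes (NOD 1 and NOD 2). The labels of all 3 libraries give whole blastocysts as input, whereas the study's methods give single inner cell masses (ICMs), and the values are reported here for blastocysts without assignment to a tissue. With 1 B6 library a difference between strains and a difference between this embryo sample and others cannot be told apart.

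An aminoacyl-tRNA synthetase joins an amino acid to its transfer RNA, so that the amino acid can be used at the ribosome. When an amino acid runs short, uncharged transfer RNA activates the kinase GCN2, which phosphorylates eIF2α, lowers general translation and favors translation of the transcription factor ATF4. Together with C/EBP partners, ATF4 activates genes for synthetases, amino acid transporters, asparagine synthesis and serine synthesis. Preimplantation embryos take up amino acids through transporters of the SLC families and also make serine and glycine for one-carbon metabolism.

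Counts on genes summed to 12505685 in B6, 33891715 in NOD 1 and 36171013 in NOD 2, so that the B6 library set the precision. Levels are given as CPM, counts relative to library size scaled by edgeR's TMM factors. The level that a count of 0 allows, that of 3 counts, was 0.220 CPM for the B6 library and 0.0908 and 0.0882 CPM for NOD 1 and NOD 2. These limits, and the 95% intervals of ratios below, cover counting error only, because amplified reads are not independent molecules. The 9 markers of ICM and epiblast summed to 1298 CPM in B6 against 2837 and 3822 in NOD 1 and NOD 2, with none at 0. Most of these sums was Dppa5a (849, 2251 and 2966 CPM), and the members differed in direction, with 3 up-regulated, Sox2 down-regulated (49.8, 5.75 and 9.61 CPM), and Klf4 and Esrrb below B6 in both NOD libraries without passing. The 9 trophectoderm markers summed to 2973, 1756 and 1627 CPM, with Elf5 at 0 in B6, and the 5 primitive endoderm markers to 391.5, 118.5 and 158.4 CPM, with Sox17 at 0 in B6 and NOD 1. The primitive endoderm sums were mostly Gata6, which was down-regulated (385.2, 91.5 and 129.9 CPM), whereas Pdgfra was up-regulated (log2 fold change 2.13). The part of these differences in the results below was not tested, and in such samples fewer cells of a type and less RNA per cell cannot be told apart. The 7 leukocyte markers summed to at most 1.03 CPM and the 7 cumulus and granulosa markers to at most 0.484 CPM in any library, with Ptprc, Lyz2, Has2 and Fshr at 0 in all 3.

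Differences between the strains were tested with the quasi-likelihood method of edgeR over the whole table. Genes counted as up- or down-regulated in NOD when the Benjamini-Hochberg adjusted p was under 0.05 and the change was at least 2-fold. Of the 37 genes, 36 had enough counts to be tested, and Slc7a11 did not. In NOD, 4 were up-regulated (Rars, Asns, Psph and Slc3a2), which is 11.1% against 10.3% of all 14456 genes tested. Ddit3 alone was down-regulated, 2.78% against 7.39%. Both shares of all genes are the background against which these counts should be read. Both NOD libraries lay above B6 in 13 of the 36 genes (36.1%, background 45.3%) and below B6 in 19 (52.8%, background 39.4%). An unadjusted p under 0.05 was reached by 13 of the 36 in edgeR (background 39.9%). By limma-voom none of the 36 was called, and 13 had an unadjusted p under 0.05, against 3924 of all 14456 genes. By DESeq2 6 were up-regulated (16.7%, background 16.2%) and 6 down-regulated (16.7%, background 12.9%). The median log2 fold change was -0.04 for the 19 synthetase genes and -0.37 for the other 17 tested, beside 0.26 for all genes. With total counts only, all genes moved to 0.07 and the synthetase genes to -0.22, while the share of all calls that were up went from 58.1% to 47.8%.

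**Figure D1:**
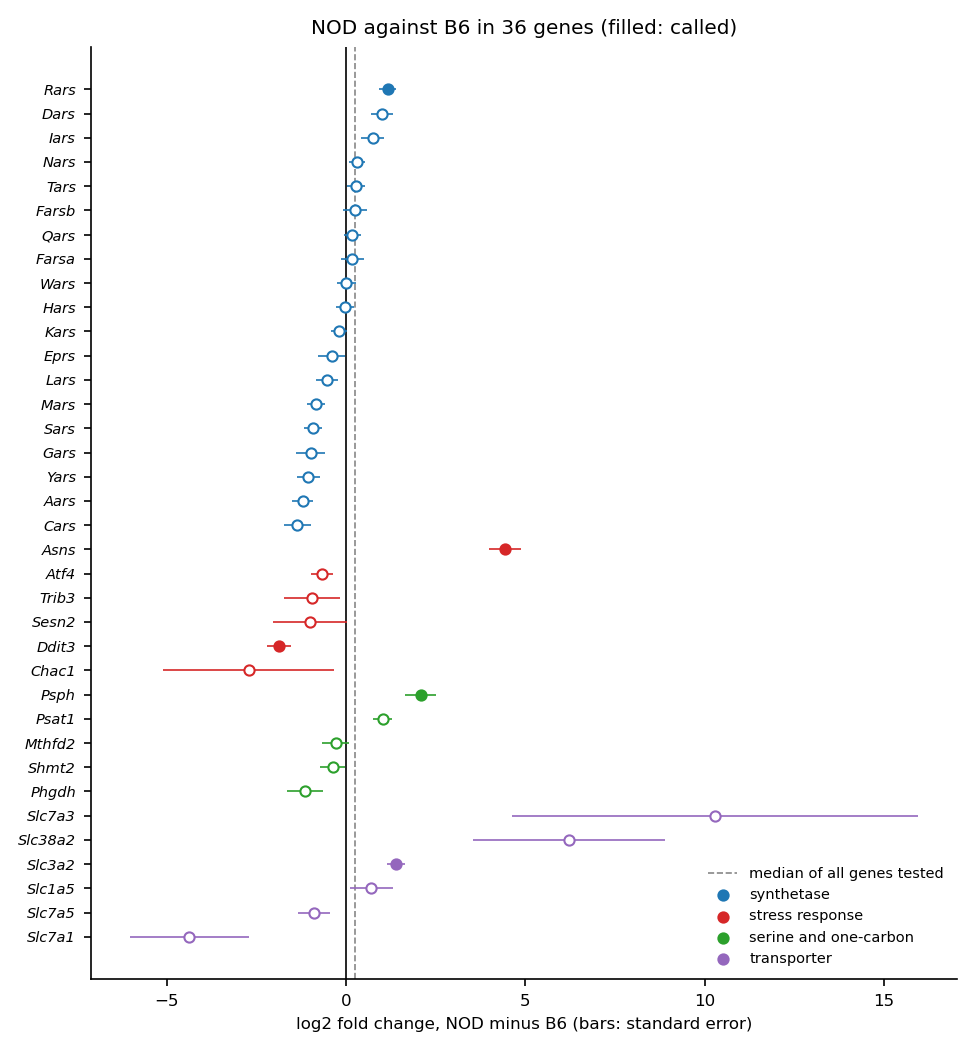
Log2 fold change, NOD minus B6, of the 36 genes tested, sorted within 4 groups, with bars for the standard error and filled points for genes that passed the threshold. The 19 synthetase genes lie between -1.36 and 1.16, whereas the transporters span from -4.37 to 10.28, the latter a value fitted against a B6 count of 0.

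The synthetase genes were abundant in all 3 libraries and mostly stayed within 2-fold of B6. Only Rars, which encodes the arginine enzyme, was called up-regulated (5.26%, background 10.3%) and none was called down-regulated (background 7.39%). An unadjusted p under 0.05 was reached by 7 of the 19 in edgeR (background 39.9%). The lowest level of any of these genes was 45.9 CPM, and 15 of the 19 had an absolute log2 fold change under 1. The largest, 1.36, belonged to Cars. Of the 3202 genes that reached the same 45.9 CPM in every library, 84.1% lay within this limit, 15.4% were up-regulated and 6.34% down-regulated. Summed over the 19 genes the level was 4055 CPM in B6 against 3648 and 3632 in NOD 1 and NOD 2, so that the NOD libraries held 0.90 times the B6 sum.

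Rars (NM_025936, chromosome 11 of mm10, 35808381 to 35834528) had 158.6 CPM in B6 (2161 counts) against 333.7 and 375.5 in NOD 1 and NOD 2. Both NOD libraries were more than 2-fold above B6 and close to each other. Its log2 fold change came to 1.16 with standard error 0.24 (edgeR adjusted p = 0.0413). The call was lost with total counts only (0.97, adjusted p = 0.0550) and with upper-quartile factors (adjusted p = 0.0560), and over all alternatives with a test the adjusted p ranged from 0.00123 to 0.0946. Dars, for aspartate, had 152.3 CPM in B6 against 257.5 and 350.9 in NOD 1 and NOD 2, and Iars, for isoleucine, had 50.6, 87.4 and 82.7. Of the 50-base words of Iars, 8.61% also occur in the pseudogene Gm4849. Neither Dars nor Iars passed the threshold (adjusted p = 0.0783 and 0.154 from edgeR).

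On the other side of B6 lay Cars, Aars, Yars, Gars, Sars and Mars, none of which passed the threshold in edgeR. Cars, for cysteine, had 152.8 CPM in B6 against 72.9 and 45.9 in NOD 1 and NOD 2, a log2 fold change of -1.36 with standard error 0.38 (edgeR adjusted p = 0.0669). Aars, for alanine, had 303.6 CPM in B6 against 152.7 and 109.2 in NOD 1 and NOD 2, a log2 fold change of -1.21 with standard error 0.29 (edgeR adjusted p = 0.0521). In GENCODE M21, 22.4% of the 50-base words of its matched transcript also belong to Exosc6. That transcript, with 5701 words, is longer than the 3692 bases listed for Aars. Whether the shared words lie in the counted part was not checked. The call of Aars depended on the scaling, since in edgeR with size factors from DESeq2 it was down-regulated (adjusted p = 0.0469). The levels were 139.6, 77.9 and 57.1 CPM for Yars (tyrosine) in B6, NOD 1 and NOD 2. Gars, for glycine, had 398.4, 262.8 and 140.4 CPM, the widest gap between the NOD libraries among these genes. DESeq2 called Cars, Aars, Yars and Gars down-regulated. Sars (serine), at 370.7, 176.9 and 214.5 CPM, was called with total counts only (log2 fold change -1.11, adjusted p = 0.0460 from edgeR). Mars (methionine) had 271.9, 164.1 and 139.3 CPM and overlaps Ddit3 by 68 bases on the opposite strand, where reads counted without strand cannot be told apart.

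The remaining 10 synthetase genes had log2 fold changes from -0.53 to 0.30. Wars (tryptophan) and Hars (histidine) were closest to B6, at 0.00 and -0.04. Of the 50-base words of Hars, 7.53% are shared with Hars2. Kars, for lysine, had 277.0 CPM in B6 against 243.1 and 242.4 in NOD 1 and NOD 2, and Tars, for threonine, had 145.2, 175.8 and 175.3. Nars (asparagine), Qars (glutamine) and Lars (leucine) also agreed closely between the NOD libraries, at 385.6 and 405.0, 218.5 and 233.2, and 62.8 and 62.6 CPM. Eprs, a fusion that charges transfer RNAs for both glutamate and proline, had 371.4 CPM in B6 against 357.3 and 207.0 in NOD 1 and NOD 2, so that its value rested on NOD 2. All 19 genes were within 2-fold between NOD 1 and NOD 2, with a median absolute log2 difference of 0.25, against 0.43 over all genes with counts in both. Only 3202 of the 14456 genes tested reached the level of these 19 in every library, and the difference was not compared at equal level.

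Compared per length, as FPKM (CPM divided by the listed gene length in kilobases), the genes spanned a 14.5-fold range in B6, 9.48-fold in NOD 1 and 12.4-fold in NOD 2. Gars was highest in B6 (168.0 FPKM) and Iars lowest (11.6), whereas Rars was highest in both NOD libraries (157.9 and 177.6). Lars was lowest in NOD 1 (16.7) and Cars in NOD 2 (14.3). As a description, Spearman's rho of FPKM over the 19 genes was 0.62 between B6 and the NOD mean and 0.90 between the NOD libraries, which share the same gene lengths. Phenylalanyl-tRNA synthetase is built of α subunits from Farsa and β subunits from Farsb in equal number. Farsb nevertheless exceeded Farsa in FPKM 3.19 times in B6, 2.88 times in NOD 1 and 3.77 times in NOD 2, and neither gene passed the threshold (log2 fold changes of 0.25 and 0.17).

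**Figure D2:**
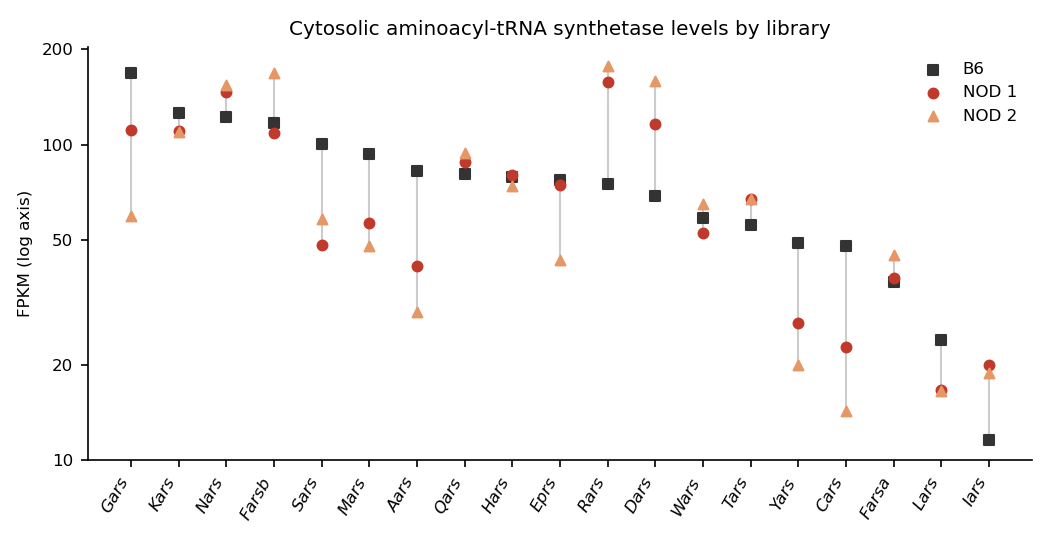
FPKM on a log axis of the 19 synthetase genes in the B6 library (squares), NOD 1 (circles) and NOD 2 (triangles), sorted by the B6 level, with a line from the lowest to the highest library. Rars, Dars and Iars lie above B6 in both NOD libraries, and Sars, Mars, Aars, Yars and Cars below it.

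In mammalian cells 8 of the synthetase genes (Eprs, Iars, Lars, Mars, Qars, Rars, Kars and Dars) encode enzymes of the multisynthetase complex, which is held together by the scaffold proteins Aimp1, Aimp2 and Eef1e1 (also known as p18). Of the 8, Rars was called up-regulated (12.5%, background 10.3%) and none down-regulated (background 7.39%). Both NOD libraries lay above B6 in 4 (50%, background 45.3%) and below it in 4 (50%, background 39.4%). The median log2 fold change was -0.01. Among the scaffold genes, a list chosen with earlier results of these data known, 2 of 3 were up-regulated (66.7%, background 10.3%). Eef1e1 had 133.7 CPM in B6 against 417.1 and 485.4 in NOD 1 and NOD 2, with a log2 fold change of 1.75 with standard error 0.25 (edgeR adjusted p = 0.0242). Aimp2 had 170.6, 335.8 and 394.7 CPM (log2 fold change 1.10, adjusted p = 0.0474), and its span overlaps that of Eif2ak1 by 14 bases on the opposite strand, with 38.6% of its 50-base words shared in GENCODE. Aimp1, with 237.1, 265.4 and 233.4 CPM, had a log2 fold change of 0.07.

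The 19 genes serve 19 of the amino acids, and the valine enzyme, which is encoded by Vars, is outside the list. Vars (NM_011690) lies on chromosome 17 at 35000907 to 35016329, in the MHC class III region, and was down-regulated. It had 4611 counts in B6 against 1883 and 1117 in the deeper NOD libraries, or 338.4 CPM against a mean of 44.9 ± 17.1 (SD, n = 2). The log2 fold change came to -2.91 with standard error 0.39 (edgeR adjusted p = 0.0231). This was beyond the range of all 19 genes listed. Its mitochondrial counterpart Vars2, on the same chromosome at 35655635 to 35667592, had 49.9 CPM in B6 against 3.75 and 2.88 in NOD 1 and NOD 2 (log2 fold change -3.91, adjusted p = 0.0212).

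Mitochondria charge their own transfer RNAs with enzymes that are mostly encoded by separate nuclear genes. Together with Vars and the threonine enzyme gene Tarsl2, 19 synthetase genes outside the list were tested, with 2 up-regulated (10.5%, background 10.3%) and 3 down-regulated (15.8%, background 7.39%), and their median log2 fold change was -0.53, beside 0.26 for all genes. Tarsl2 rose from 6.53 CPM in B6 (89 counts) to 33.3 and 36.8 in the NOD libraries (log2 fold change 2.42, edgeR adjusted p = 0.0349). Cytosolic and mitochondrial enzymes of the same amino acid formed 18 pairs, of which 10 had fold changes of the same sign. In the methionine pair, Mars had a log2 fold change of -0.84 and Mars2 was up-regulated by 2.39 (6.68 CPM in B6 against 29.6 and 40.2 in NOD 1 and NOD 2). In the serine pair, Sars had -0.92 and Sars2 was down-regulated (116.3, 28.0 and 32.5 CPM, log2 fold change -1.94). These pairs were named after their values were seen.

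**Figure D3:**
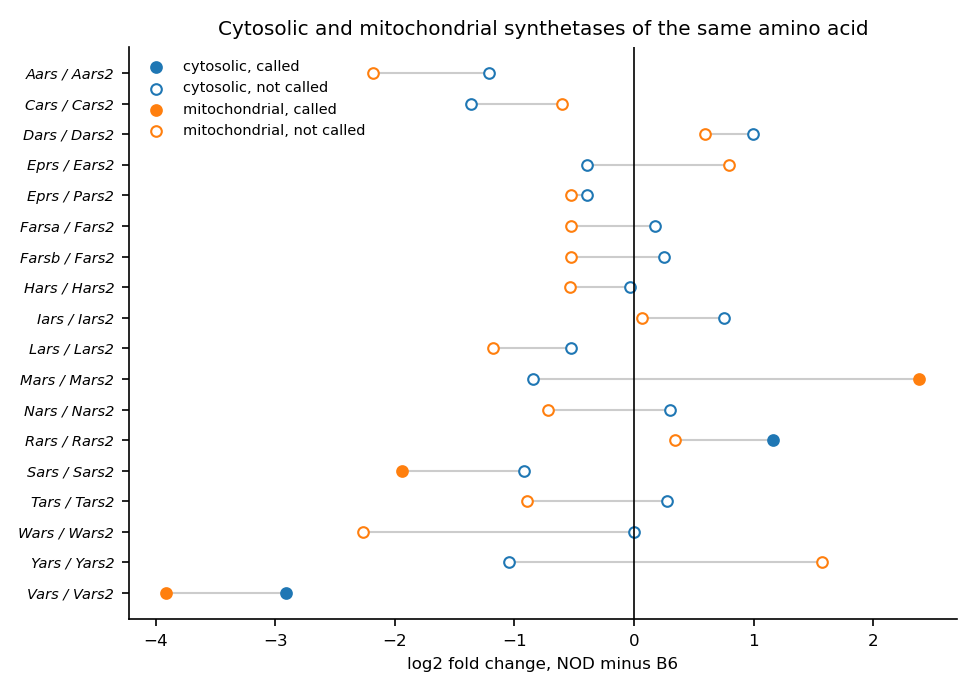
Log2 fold change, NOD minus B6, of cytosolic (blue) and mitochondrial (orange) synthetase genes for the same amino acid, joined by a line, with filled points for genes that passed the threshold. Vars and Vars2 lie farthest to the left, at -2.91 and -3.91, and Mars2 farthest to the right, at 2.39.

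The stress response genes were Atf4 itself, Ddit3, Chac1, Trib3, Sesn2 and Asns. Of these, 5 were lower than B6 in both NOD libraries (83.3%, background 39.4%), 1 of which (Ddit3) passed the threshold, and Asns was higher in both (16.7%, background 45.3%). Asns encodes asparagine synthetase, which makes asparagine from aspartate and glutamine, and is a widely used readout of ATF4. Asns (NM_012055, chromosome 6, 7675171 to 7693182) had 61 counts in B6 against 3526 and 2905 in NOD 1 and NOD 2. In CPM these were 4.48 for B6 and a mean of 96.0 ± 15.1 for NOD (SD, n = 2). NOD exceeded B6 by a factor of 21.4 (exact 95% interval for counting error 16.6 to 28.0). The log2 fold change came to 4.42 with standard error 0.45 (edgeR adjusted p = 0.0203), the largest of the called genes among the 37. It stayed between 4.24 and 4.57 under every alternative, and the call was lost only with limma-voom (adjusted p = 0.0691) and without a filter on low counts (adjusted p = 0.0649). None of its 50-base words occurred in another gene of GENCODE M21.

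Ddit3 encodes CHOP, a transcription factor induced by ATF4 under sustained stress. It lies on chromosome 10 at 127290793 to 127296288 (NM_007837) and had 121.1 CPM in B6 (1650 counts) against 37.7 and 28.7 in NOD 1 and NOD 2. The log2 fold change came to -1.87 with standard error 0.34 (edgeR adjusted p = 0.0345), and both NOD libraries were more than 3-fold below B6. Its end overlaps that of Mars, which was higher than Ddit3 in every library in CPM, and 2.26% of its 50-base words occur in Mars.

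Atf4 had 189.0 CPM in B6 against 137.9 and 100.9 in NOD 1 and NOD 2, a log2 fold change of -0.66 that did not pass (standard error 0.30, adjusted p = 0.173 from edgeR). Since ATF4 is controlled largely in translation, its RNA level is not a measure of its activity. Chac1, which encodes an enzyme that degrades glutathione, had 32 counts in B6 against 0 and 24 in NOD 1 and NOD 2, or 2.35, 0 and 0.705 CPM. The count of 0 in NOD 1 allows up to 0.0908 CPM. Trib3, a pseudokinase that restrains ATF4 and CHOP, had 6.83, 2.51 and 4.56 CPM. Sesn2, a leucine sensor that restrains mTORC1, had 16.4 CPM in B6 against 2.48 and 13.8 in NOD 1 and NOD 2, so that NOD 2 lay close to B6. The adjusted p of Chac1, Trib3 and Sesn2 ranged from 0.398 to 0.483 in edgeR.

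The Asns promoter is shown because Asns differed most from the other stress response genes, in capitals the bases that match TGATGNAA, the core of the element that ATF4 and its C/EBP partners bind. The sequence runs from 250 bases before the RefSeq start site to base 30 after it, chr6:7693180-7693459 of GRCm38.p6, minus strand.
Asns: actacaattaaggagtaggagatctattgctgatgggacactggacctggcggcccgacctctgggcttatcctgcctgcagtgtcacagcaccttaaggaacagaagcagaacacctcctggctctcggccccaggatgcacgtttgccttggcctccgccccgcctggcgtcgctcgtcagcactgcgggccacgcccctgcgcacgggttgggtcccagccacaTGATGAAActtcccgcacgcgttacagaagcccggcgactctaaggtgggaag

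The 8-base core was searched on both strands of RefSeq promoters of 300 bases (250 before the start and 50 after), which were given for 28 of the 37 genes. It was found in 9 of the 28 (32.1%), against 3.97% of all 32851 promoters. The genes were chosen in part as known ATF4 targets, so that a higher share follows from the choice and is not a test. The first share also counts genes, whereas the second counts promoters. The other matches lay in Aars, Gars, Iars, Tars, Yars, Chac1, Trib3 and Slc7a11, and are printed 5′ to 3′ on the strand of the gene with up to 30 bases after the start site. Capitals mark the match, which reads TTNCATCA where it lies on the opposite strand, and Aars and Slc7a11 hold 2 matches each.
Aars, chr8:111033730-111033871, plus strand: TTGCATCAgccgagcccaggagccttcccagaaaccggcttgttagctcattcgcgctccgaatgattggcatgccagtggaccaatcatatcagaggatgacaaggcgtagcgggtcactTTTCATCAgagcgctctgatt
Gars, chr6:55037941-55038000, plus strand: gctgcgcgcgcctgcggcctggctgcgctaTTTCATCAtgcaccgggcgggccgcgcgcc
Iars, chr13:49682100-49682159, plus strand: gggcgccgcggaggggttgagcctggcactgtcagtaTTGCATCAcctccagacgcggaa
Tars, chr15:11399644-11399703, minus strand: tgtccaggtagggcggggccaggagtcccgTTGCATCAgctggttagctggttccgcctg
Yars, chr4:129189873-129189932, plus strand: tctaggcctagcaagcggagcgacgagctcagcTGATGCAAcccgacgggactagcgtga
Chac1, chr2:119351019-119351078, plus strand: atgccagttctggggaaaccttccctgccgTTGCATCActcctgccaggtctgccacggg
Trib3, chr2:152344031-152344090, minus strand: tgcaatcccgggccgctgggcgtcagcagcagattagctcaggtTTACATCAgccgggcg
Slc7a11, chr3:50443631-50443690, minus strand: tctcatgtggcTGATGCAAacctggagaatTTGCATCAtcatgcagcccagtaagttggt

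The genes with a match did not share a direction in NOD. Asns was up-regulated, Iars and Tars had log2 fold changes of 0.75 and 0.27 that did not pass, and Aars, Gars, Yars, Chac1 and Trib3 had values from -2.72 to -0.95 that did not pass either. Slc7a11 had 1, 0 and 4 counts in B6, NOD 1 and NOD 2, at or near the limit that a count of 0 allows. Of the other called genes, Ddit3, Psph and Slc3a2 had no match in this window and Rars was not in the promoter table. A match describes letters only, and no binding of ATF4 was measured in these embryos.

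Serine is made from a glycolytic intermediate by Phgdh, Psat1 and Psph in turn, and Shmt2 and Mthfd2 then pass its carbon into the mitochondrial folate pathway. The last enzyme, Psph, was up-regulated in NOD. Psph (NM_133900, chromosome 5, 129765558 to 129787253) had 12.1 CPM in B6 (165 counts) against 45.2 and 56.9 in NOD 1 and NOD 2. Its ratio was 4.22 with a counting interval from 3.61 to 4.97, and the log2 fold change 2.08 (standard error 0.43, adjusted p = 0.0403 from edgeR). The call was lost with total counts only (adjusted p = 0.0508), upper-quartile factors (adjusted p = 0.0523), limma-voom (adjusted p = 0.113) and without the filter on low counts (adjusted p = 0.0769). In GENCODE, 23.9% of its 50-base words also belong to Cct6a, the neighboring gene, although the spans in the count table do not overlap.

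Psat1 was the most abundant of the 18 other genes, with 351.4 CPM in B6 against 606.1 and 816.7 in NOD 1 and NOD 2. It was higher in both NOD libraries, with a log2 fold change of 1.02 that did not pass (standard error 0.27, adjusted p = 0.0643 from edgeR). Phgdh, the enzyme that commits carbon to the pathway, lay on the other side, with 41.5, 13.1 and 24.6 CPM (log2 fold change -1.14, adjusted p = 0.166). However, 63.1% of the 50-base words of Phgdh also occur in pseudogenes such as Gm7901, so that its count is uncertain. Per listed length, Psat1 exceeded Phgdh 7.27 times in B6, 39.7 times in NOD 1 and 28.5 times in NOD 2, and it exceeded Psph 20.5, 9.47 and 10.1 times. Shmt2 had 53.1, 38.9 and 43.2 CPM and Mthfd2 had 70.4, 46.7 and 68.3, both below B6 in both NOD libraries without passing (adjusted p = 0.449 and 0.591).

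Slc3a2 was the called gene among the transporters. It encodes the heavy chain CD98, which carries the light chains of several amino acid exchangers to the cell surface. Slc3a2 (NM_008577, chromosome 19, 8706882 to 8713897) had 90.2 CPM in B6 (1229 counts) against 244.6 and 227.6 in NOD 1 and NOD 2. Its log2 fold change came to 1.39 with standard error 0.26 (edgeR adjusted p = 0.0344), and it passed under each of the 4 scalings tried in edgeR, as Asns and Ddit3 did. None of its 50-base words occurs in another gene.

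The 6 light chains that pair with Slc3a2 had values on both sides of B6. Slc7a5, whose product exchanges large neutral amino acids such as leucine, had 44.1 CPM in B6 against 29.0 and 18.4 in NOD 1 and NOD 2 (log2 fold change -0.90, adjusted p = 0.196 from edgeR). Slc7a11, whose product imports cystine and is a classic ATF4 target, had at most 4 counts in any library and was not tested. Outside the 37 genes, Slc7a6, which exchanges arginine for neutral amino acids and is named after its value was seen, had 101.7, 260.2 and 240.9 CPM and was up-regulated (log2 fold change 1.30, adjusted p = 0.0367). Slc7a7, with the same function, had 16.1, 41.8 and 65.9 CPM and did not pass (log2 fold change 1.74, adjusted p = 0.0671), and Slc7a8 and Slc7a10 stayed under 4 CPM. In FPKM, Slc7a6 was the highest of the light chains in all 3 libraries, at 27.4 in B6, 70.0 in NOD 1 and 64.8 in NOD 2, beside 35.2, 95.5 and 88.9 for Slc3a2.

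**Figure D4:**
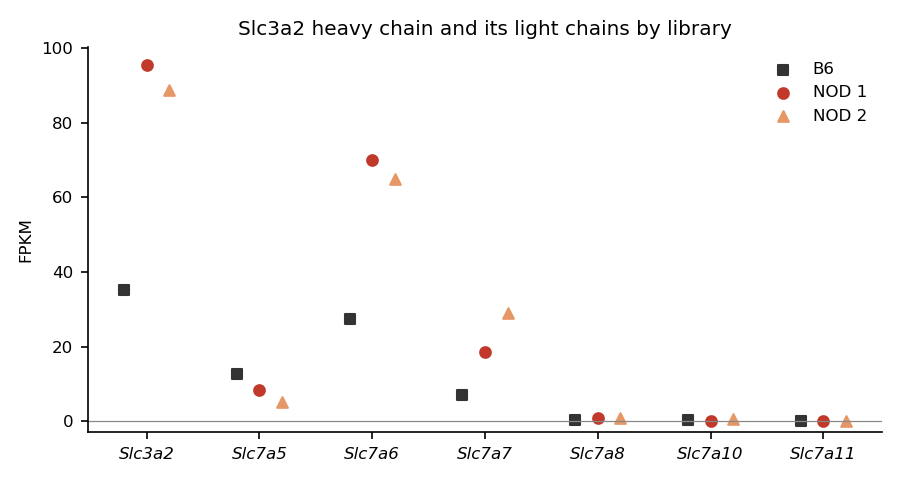
FPKM of the heavy chain gene Slc3a2 and of 6 light chain genes in the B6 library (squares), NOD 1 (circles) and NOD 2 (triangles). Slc3a2, Slc7a6 and Slc7a7 lie higher in both NOD libraries, Slc7a5 lies lower, and the other three are near 0.

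The remaining transporters differed mainly between the 2 NOD libraries. Slc7a1, which encodes the cationic amino acid transporter CAT1, had 477 counts in B6 against 2 and 113 in NOD 1 and NOD 2, or 35.0, 0.0605 and 3.32 CPM. The B6 level was above both NOD libraries, which themselves differed by 5.78 on the log2 scale (log2 fold change -4.37, standard error 1.66, adjusted p = 0.123 from edgeR). Slc7a3, for CAT3, was at 0 in B6 and NOD 1 and had 394 counts in NOD 2, a level of 11.6 CPM that is at least 52.6-fold above what a count of 0 in B6 allows. Slc38a2, which encodes the system A transporter SNAT2, had 3 counts in B6 against 31 and 1109 in NOD 1 and NOD 2. The ratio of pooled NOD to B6 was 77.2 with a counting interval from 26.3 to 375, but the NOD libraries lay 5.12 apart on the log2 scale and the difference from B6 did not pass (adjusted p = 0.155). Slc1a5, for the glutamine transporter ASCT2, had 13.2, 14.5 and 28.7 CPM (log2 fold change 0.71, adjusted p = 0.406). DESeq2 called Slc7a3 and Slc38a2 up-regulated and Slc7a1 down-regulated.

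**Figure D5:**
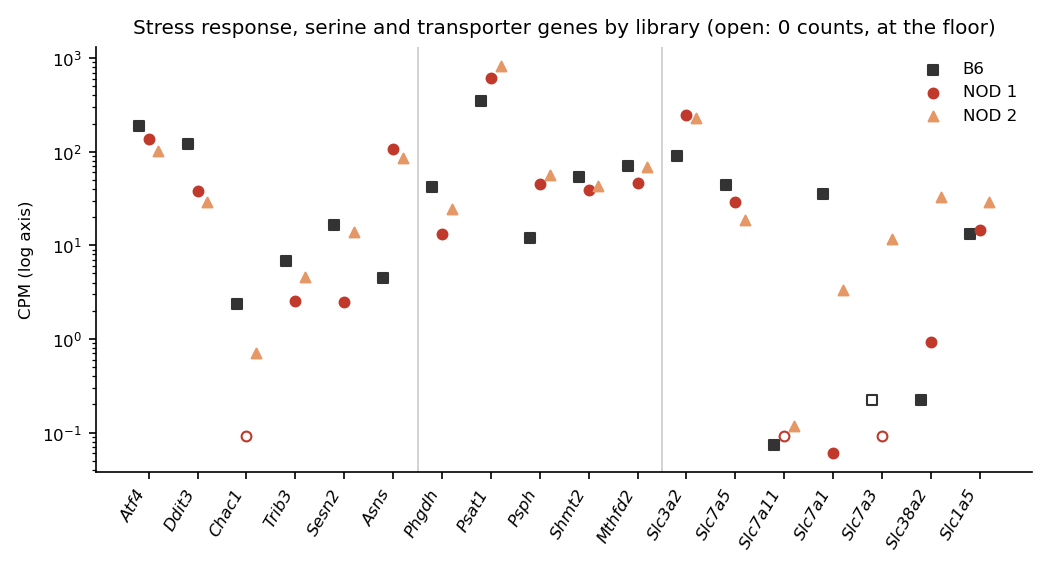
CPM on a log axis of the stress response genes (left), serine and one-carbon genes (middle) and transporters (right) in B6 (squares), NOD 1 (circles) and NOD 2 (triangles). Open symbols are counts of 0 drawn at the level of 3 counts, and the widest gaps between the NOD libraries are those of Slc7a1, Slc7a3 and Slc38a2.

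In all, 6 of the 18 other genes were at least 2-fold apart between NOD 1 and NOD 2 or had counts in only 1 of them (Slc7a1, Slc7a3, Slc7a11, Slc38a2, Sesn2 and Chac1). The median absolute log2 difference between the NOD libraries was 0.55 over the 15 genes with counts in both. The standard error of the log2 fold change was under 0.5 in 9 of the 17 tested and in all 19 synthetase genes, so that the test could separate smaller differences in the latter.

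Related genes of the same pathways were taken from hand-written lists, which include the scaffold and further synthetase genes above. The lists were chosen with earlier results of these data known, so that their shares are a description and not a test. Of the 112 genes, 106 were tested, with 17 up-regulated (16.0%, background 10.3%) and 8 down-regulated (7.55%, background 7.39%). Among the 7 genes for eIF2α, its kinases and its phosphatase subunits, 1 was up-regulated (14.3%, background 10.3%) and none down-regulated (background 7.39%). Eif2s1, which encodes eIF2α itself, was the one called, with 129.2 CPM in B6 against 507.5 and 612.9 in NOD 1 and NOD 2 (log2 fold change 2.12, adjusted p = 0.0223 from edgeR). Of its 50-base words, 8.49% also occur in pseudogenes. Eif2ak4, the gene of GCN2, had 10.1, 15.1 and 24.6 CPM and did not pass (adjusted p = 0.248). Of 19 further ATF4 partners and targets, 1 was up-regulated (5.26%, background 10.3%) and 2 down-regulated (10.5%, background 7.39%). Ddit4, a stress-induced inhibitor of mTORC1, fell from 63.6 CPM in B6 (867 counts) to 1.15 and 2.17 in the NOD libraries (log2 fold change -5.25, adjusted p = 0.0203). Cbs, which draws homocysteine towards cysteine, fell from 177.0 CPM to 3.72 and 10.6 (log2 fold change -4.63, adjusted p = 0.0242). Nupr1, a stress-induced chromatin protein, rose from 0 in B6 to 7.69 and 32.0 CPM, on average at least 90.2-fold over what a count of 0 allows (adjusted p = 0.0354).

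Among 14 other genes of serine, glycine and folate metabolism, 3 were up-regulated (21.4%, background 10.3%) and 1 down-regulated (7.14%, background 7.39%). Gcsh and Dld, which encode 2 proteins of the glycine cleavage system, rose from 314.3 to 689.0 and 891.0 CPM and from 127.6 to 278.0 and 324.6 CPM (log2 fold changes 1.33 and 1.24, adjusted p = 0.0375 and 0.0408 from edgeR). Ahcy, which clears the product of methylation reactions, fell from 64.7 CPM to 17.6 and 11.9 (log2 fold change -2.13, adjusted p = 0.0367). Among 24 other amino acid transporters, 7 were up-regulated (29.2%, background 10.3%) and 2 down-regulated (8.33%, background 7.39%), with a median log2 fold change of 1.40. Slc6a14, a transporter of neutral and cationic amino acids, rose from 3.67 CPM in B6 (50 counts) to 91.9 and 130.1 (log2 fold change 4.92, adjusted p = 0.0198). Slc7a2, for the cationic transporter CAT2, rose from 0 in B6 to 3.93 and 5.44 CPM, on average at least 21.3-fold (adjusted p = 0.0351), and Slc43a2, for a transporter of large neutral amino acids, fell from 16.6 CPM to 0.908 and 1.56 (adjusted p = 0.0349). Of 21 genes for leucine and arginine sensing by mTORC1, 1 was up-regulated (4.76%, background 10.3%) and 1 down-regulated (4.76%, background 7.39%). Sec13, part of the GATOR2 complex, rose from 119.8 CPM to 289.8 and 369.0 (edgeR adjusted p = 0.0366) and Ddit4, which is on this list too, fell.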

How the data were processed

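Single-end reads were aligned by the authors to mm10 with STAR (2.4.2a in the study's methods, 2.2.0c in the submitters' processing notes) and counted with HOMER on exons of RefSeq genes, without strand and with 1 transcript per gene. The deposited table holds raw counts. The handling of multi-mapping reads is not given in the sources used here. Libraries were grouped by strain. Counts were analysed in R 4.3.3 with edgeR 4.0.16 (filterByExpr with a minimum count of 10, TMM factors, quasi-likelihood test with trended dispersion, legacy set to false and a prior count of 0.125), Python 3.11.15 and scipy 1.17.1. DESeq2 1.42.0 and limma 3.58.1 served as alternatives, beside other scalings, no filter and leaving out each NOD library. Only the NOD pair informs the spread (1 residual degree of freedom, moderated across genes with 3.78 prior degrees of freedom). B6 is assumed to vary like NOD. No source says that the NOD libraries came from separate embryo collections, so p-values measure the spread between these libraries, which may be technical. For a single gene, the smallest exact permutation p of this design is 0.333. Standard errors were derived from the fold change and F statistic of each gene. Intervals of ratios are exact Clopper-Pearson intervals on pooled counts, and FPKM uses the listed gene length and the TMM scale. The genes and lists were chosen with earlier results of these data known. All 37 genes are named, with at most 3 called genes of the largest change and at least 1 CPM from each related list. Outside this rule, and chosen after their values were seen or for their role, are Mars2, Sars2, Slc7a6, Slc7a7, Slc7a8, Slc7a10, Aimp1 and Eif2ak4, and marker genes are named where they carry a marker sum. Promoters come from RefSeq (GRCm38.p6) and 50-base words from GENCODE M21 transcripts.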

Additional observations from a re-analysis of the deposited data

How the results depend on the processing

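Counts of calls depended on the test and the scaling. Of the 36 genes tested, 4 were up-regulated, but 2 with total counts only or upper-quartile factors and 0 with limma-voom or without the filter on low counts. The 1 down-regulated gene became 2 with size factors from DESeq2 in edgeR or total counts only, 6 with DESeq2's own test (16.7%, against 12.9% of all genes), and 0 with limma-voom or without the filter. In both settings that gave 0, no gene of the whole table was called, with 3924 genes at an unadjusted p under 0.05 in limma-voom and 5568 in edgeR without the filter, so that these settings say nothing particular to the genes here. The median log2 fold change of the synthetase genes, -0.04, became -0.075 with DESeq2 size factors in edgeR or DESeq2, -0.22 with total counts only and -0.0095 without the filter, and ranged from -0.10 to -0.080 when either NOD library was left out. That of the other genes stayed between -0.56 and -0.23. Of the 37 genes, none that passed the threshold reversed under the alternatives run. Calls in the related lists, 17 up and 8 down, were the same in number with no limit on fold. This check could hardly differ, since over all genes the calls went only from 1483 to 1488 up and from 1069 to 1077 down. Calls in these lists were 22 and 12 with DESeq2 (20.8% and 11.3%, against 16.2% and 12.9% of all genes). With limma-voom they were 0 (33 at an unadjusted p under 0.05), and the other scalings were not run on them. No paired analysis was made, because the labels give no pairing between B6 and NOD libraries. A count of 0 in B6 allows up to 0.220 CPM, which bounds the ratio of Slc7a3. Leaving out a NOD library left 1 library against 1, which gives values with no test, and Slc7a3 had no value without NOD 2.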
